A study of Mus musculus with 12 samples.

Results

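The 6 genes described here were H2-Eb1, Igtp, Lyz2, Cxcl1, Il18 and Selp, a set of antigen presentation, interferon and leukocyte genes taken by gene symbol from the platform's probe table. They were 6 of the 5871 named genes tested on cDNA arrays of mouse kidney cortex. Each had 1 clone, printed as 2 adjacent spots, and all 6 clones passed the filter on dim spots. The series compared 3 diabetic mice, treated with STZ (streptozotocin, which destroys pancreatic beta cells), with 3 menopausal/diabetic mice, treated with VCD (4-vinylcyclohexene diepoxide, which destroys small ovarian follicles) and STZ. Cortex RNA was taken 6 weeks after STZ. All 6 animals therefore had STZ diabetes, and no untreated or VCD-only animals were analysed here. The labels do not state strain, sex or age, nor whether a numbered sample came from a single mouse.

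H2-Eb1 encodes the beta chain of the class II molecule E, which shows peptides from outside the cell to helper T cells and is found mainly on dendritic cells, macrophages and B cells, but can also be induced on other cells by interferon gamma. Igtp encodes Irgm3, a GTPase that interferons induce in many cell types and that acts against microbes living in vacuoles. Lyz2 is the lysozyme of macrophages and neutrophils. Cxcl1 is a chemokine that attracts neutrophils, Il18 is a cytokine that tubular epithelium stores as a precursor and caspase 1 cleaves, and Selp is P-selectin, which platelets and endothelium put on their surface to catch leukocytes.

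Class II genes are known to be switched on through X and Y boxes, interferon-induced genes through GAS and ISRE elements, and many chemokine genes through kappaB elements. The stretches below are RefSeq sequences of build GRCm38.p6, written 5′ to 3′ in the gene's direction, and are shown for H2-Eb1, Igtp and Cxcl1, and for Tgtp1, Bst2 and Ifitm3, which with Igtp are those of the 7 interferon-induced genes tested that hold both a GAS and an ISRE match. All 7 were lower in diabetic 3, the animal low for H2-Eb1, than in the mean of diabetic 1 and 2. The 4 with both motifs had log2 differences of -0.77 to -0.52. Ifitm2, Samhd1 and Sp100, which hold at most 1 of the 2 motifs, had -0.43, -0.11 and -0.11. Samhd1 was lowest in menopausal/diabetic 2, and Sp100 was detected on 2 of 12 arrays. Whether the motifs had a part in these values was not tested. All 6 members had an entry in the table of windows from 250 bases before to 50 bases after the annotated start. Capitals mark TAGCAAC, a core of the class II X box, and ATTGG, the inverted CCAAT core of the Y box, in H2-Eb1. In Igtp, Tgtp1, Bst2 and Ifitm3 they mark TTCNNNGAA (the gamma-activated site, GAS) and GAAA and GAAA with any 2 bases between (a core of the interferon-stimulated response element, ISRE). In Cxcl1 they mark GGAATTTCC, a kappaB element. Motifs were searched on both strands, and overlapping matches run together in capitals.
H2-Eb1 (chr17:34305762-34305841, plus strand): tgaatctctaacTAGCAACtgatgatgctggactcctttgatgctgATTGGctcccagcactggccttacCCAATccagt
Igtp (chr11:58199306-58199605, plus strand): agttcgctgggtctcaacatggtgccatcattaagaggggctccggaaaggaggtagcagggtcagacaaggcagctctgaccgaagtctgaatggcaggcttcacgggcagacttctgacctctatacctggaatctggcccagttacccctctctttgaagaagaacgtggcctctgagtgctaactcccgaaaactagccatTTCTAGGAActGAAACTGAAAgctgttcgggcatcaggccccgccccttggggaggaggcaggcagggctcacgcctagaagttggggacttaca
Tgtp1 (chr11:48992272-48992351, minus strand): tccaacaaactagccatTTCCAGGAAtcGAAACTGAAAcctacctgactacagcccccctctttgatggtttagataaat
Bst2 (chr8:71537548-71537627, minus strand): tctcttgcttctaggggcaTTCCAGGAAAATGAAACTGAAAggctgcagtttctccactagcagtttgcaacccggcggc
Ifitm3 (chr7:141010695-141010774, minus strand): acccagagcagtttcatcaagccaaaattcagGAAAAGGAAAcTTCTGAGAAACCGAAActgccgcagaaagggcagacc
Cxcl1 (chr5:90891145-90891224, plus strand): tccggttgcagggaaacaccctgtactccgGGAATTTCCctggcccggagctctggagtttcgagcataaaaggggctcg

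In Igtp and Tgtp1, which are both GTPases of the interferon-induced family, 2 bases separated the GAS from the ISRE core. In Bst2, which encodes tetherin, and in Ifitm3, an antiviral membrane protein, a GAS match overlapped an ISRE match, and in Ifitm3 the matches lay after the annotated start. Of 32851 windows, 8.30% held TTCNNNGAA, 3.44% held the ISRE core and 0.454% held both. Of the 7 interferon-induced genes tested here, 4 held both. TAGCAAC was in 3.66% of windows, ATTGG in 37.4% and GGAATTTCC in 0.317%. Of the other members, Il18 and Selp each held 1 match to ATTGG and none of the remaining motifs, and Lyz2 held no match to any of the 5. These are matches of letters, and binding was not measured.

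The values came from 12 arrays that each carried cDNA of 2 animals in Alexa Fluor 546 and 647, with every animal on 4 arrays, 2 in each dye. The scanner software called 30.5% to 57.4% of spots detected per array. From the 12 log2 ratios of a gene, a level per animal was estimated by least squares together with a dye term. A level is therefore relative to the mean of the 6 animals for that gene, and levels of different genes cannot be compared. The link between arrays and animals rests on the titles. The animal identifiers inside 11 of the 12 scanner files matched their titles, and the array titled diabetic 2 against diabetic 3 carried others. The deposited log2 table followed the scanner ratios under other array names: 0 of its 12 columns matched their own array best. Each column's best correlation was negative (-0.953 to -0.628), and the direction of the deposited ratios is not stated, so their sign was turned here. When each array was predicted from the other 11, the correlation across the 9958 features tested ran from -0.26 to 0.495. With the deposited columns as named, the difference of diabetic 3 from the mean of diabetic 1 and 2 was then 0.49 for H2-Eb1, 0.27 for Igtp, 0.07 for Lyz2, -0.97 for Cxcl1 and 0.19 for Il18, of opposite sign to the values given below. Without the turn these values change sign, to -0.49, -0.27, -0.07, 0.97 and -0.19, so the deposited columns as named settle no direction.

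The group comparison asked whether diabetic mice that also received VCD had other levels of these genes. By limma's moderated test on the 6 animal levels with Benjamini-Hochberg adjustment, 0 of the 6 members passed the threshold of 0.05, as did 0 of all 9958 features (0%), and the smallest adjusted p of any feature was 0.239. At an unadjusted p under 0.05 there were 0 of 6 members and 833 features (8.37%), of which 5.14% of all features were higher and 3.22% lower in menopausal/diabetic animals. The difference was positive for 3 members, H2-Eb1, Igtp and Il18, and for 49% of features. The lowest and highest levels of the groups overlapped for all 6 members, where the groups did not overlap for 14.2% of features. With the 12 arrays as replicates in place of the 6 animals, 22 features (0.221%) and 0 members passed, and the adjusted p of H2-Eb1 was 0.0644. At an unadjusted p under 0.05 there were then 3 of 6 members (H2-Eb1, Igtp and Cxcl1) and 9.74% of features, but arrays that share animals are not independent.

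**Figure D1:**
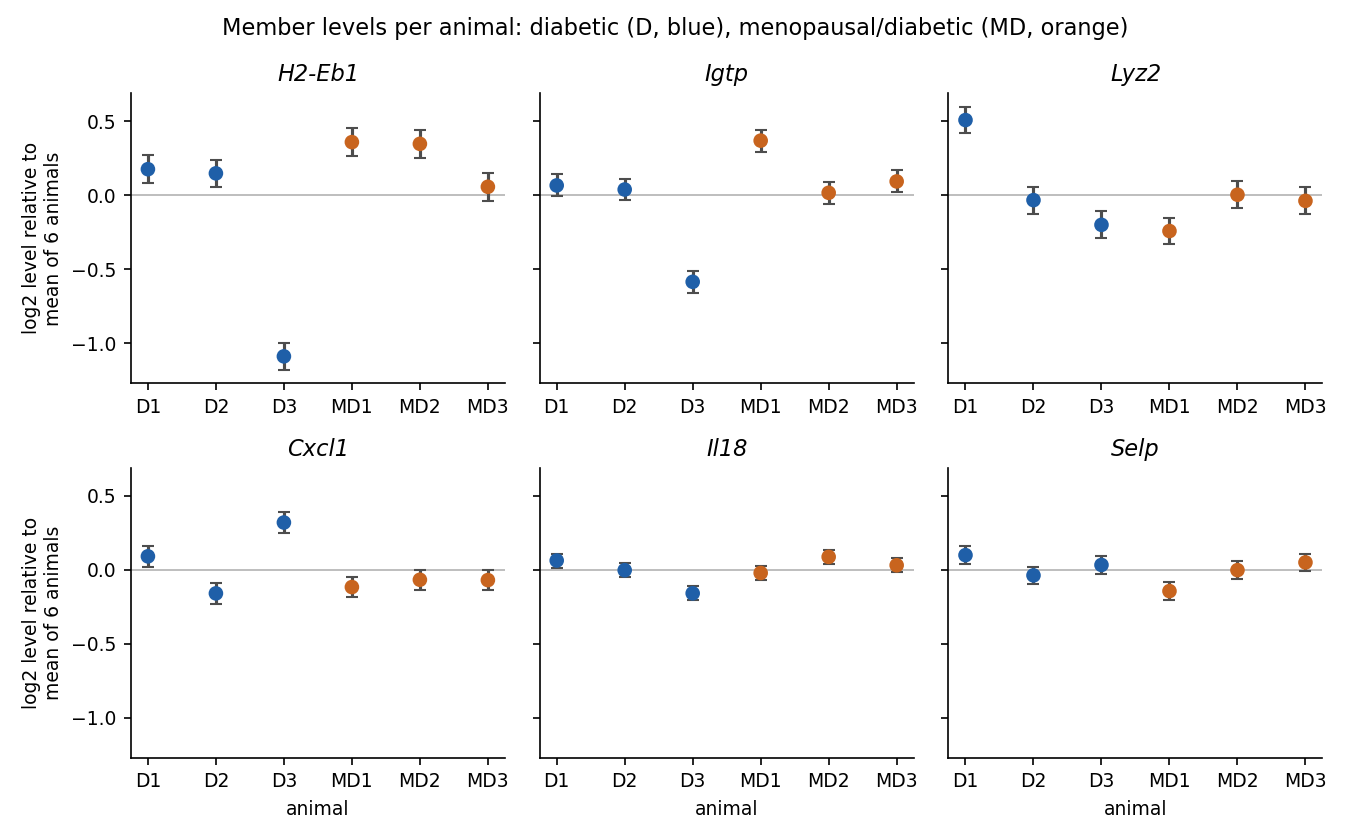
Level of each member in the 3 diabetic (D, blue) and 3 menopausal/diabetic (MD, orange) animals on a log2 scale, relative to the mean of the 6 animals; bars are the standard error between arrays (4 arrays per animal). Diabetic 3 lies at -1.09 for H2-Eb1 and -0.58 for Igtp, below all other animals, and diabetic 1 lies at 0.51 for Lyz2, above them.

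H2-Eb1 differed among the 3 diabetic animals, where it was low in diabetic 3. Its level was 0.18 in diabetic 1, 0.15 in diabetic 2 and -1.09 in diabetic 3, and 0.36, 0.35 and 0.06 in menopausal/diabetic 1, 2 and 3. The other 5 animals lay close together, with neighbours in the order apart by at most 0.17 ± 0.14 (SE between arrays), while diabetic 3 lay 1.15 ± 0.15 below the next animal, menopausal/diabetic 3. Relative to the mean of diabetic 1 and 2 it was 2.38-fold lower in diabetic 3 (-1.25 on the log2 scale). Only 0.060% of the features tested, H2-Eb1 included, had a value of this difference as low or lower.

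The moderated F test of equal levels among the 3 diabetic animals, whose error is the spread between arrays, gave an adjusted p of 0.00378 for H2-Eb1. It called 144 features (1.45%), and 2 of the 6 members, H2-Eb1 and Igtp. Both had their lowest level in diabetic 3, as 0.482% of features did with a call, while 0.904% were called with their highest level there. At an unadjusted p under 0.05 there were 5 of 6 members, all but Selp, and 13.1% of features. With or without a call, diabetic 3 was the lowest animal for H2-Eb1, Igtp and Il18 (22.4% of features) and the highest for Cxcl1 (26.8%). The same test among the 3 menopausal/diabetic animals called 0 features (0%), with 511 (5.13%) at an unadjusted p under 0.05, and the adjusted p of H2-Eb1 there was 0.943. Whether the spread differed between the groups was not tested. The group difference of H2-Eb1 was 0.51 ± 0.33 (SE, n = 3 animals per group, limma adjusted p 0.716), and 0.18 without diabetic 3.

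On each of the 4 arrays that carried diabetic 3, H2-Eb1 was lower in that animal than in its partner. After removal of the dye term the log2 ratio of diabetic 3 over its partner was -1.38 against menopausal/diabetic 2, -1.18 against menopausal/diabetic 1, -1.23 against diabetic 2 and -1.59 against diabetic 1. Diabetic 3 was labelled with Alexa Fluor 647 on 2 of these arrays and with 546 on the other 2. On the other 8 arrays the ratio reached at most 0.54 in either direction. When each array was predicted from the other 11, the sign of the H2-Eb1 ratio was as predicted on 10 of 12 arrays and on all 4 with diabetic 3, and predicted and observed ratios correlated at 0.911 over the 12 arrays, which share animals.

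The call for H2-Eb1 depended on which arrays entered. The adjusted p was 0.0547 without the array that carries another identifier, 0.0609 without menopausal/diabetic 1, 0.171 without menopausal/diabetic 2, 0.21 without diabetic 2 and 0.931 without diabetic 3. With plain background subtraction it was 0.0989. The deposited ratios gave -1.45 for diabetic 3 against diabetic 1 and 2 when re-matched to the scanner files they correlate with (adjusted p 0.0104). That match and the turn of sign were chosen on the same scanner ratios, so the re-matched values are no separate check. As named, the deposited ratios gave an adjusted p of 1, where the residual SD between arrays was 0.948 in place of 0.204.

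**Figure D2:**
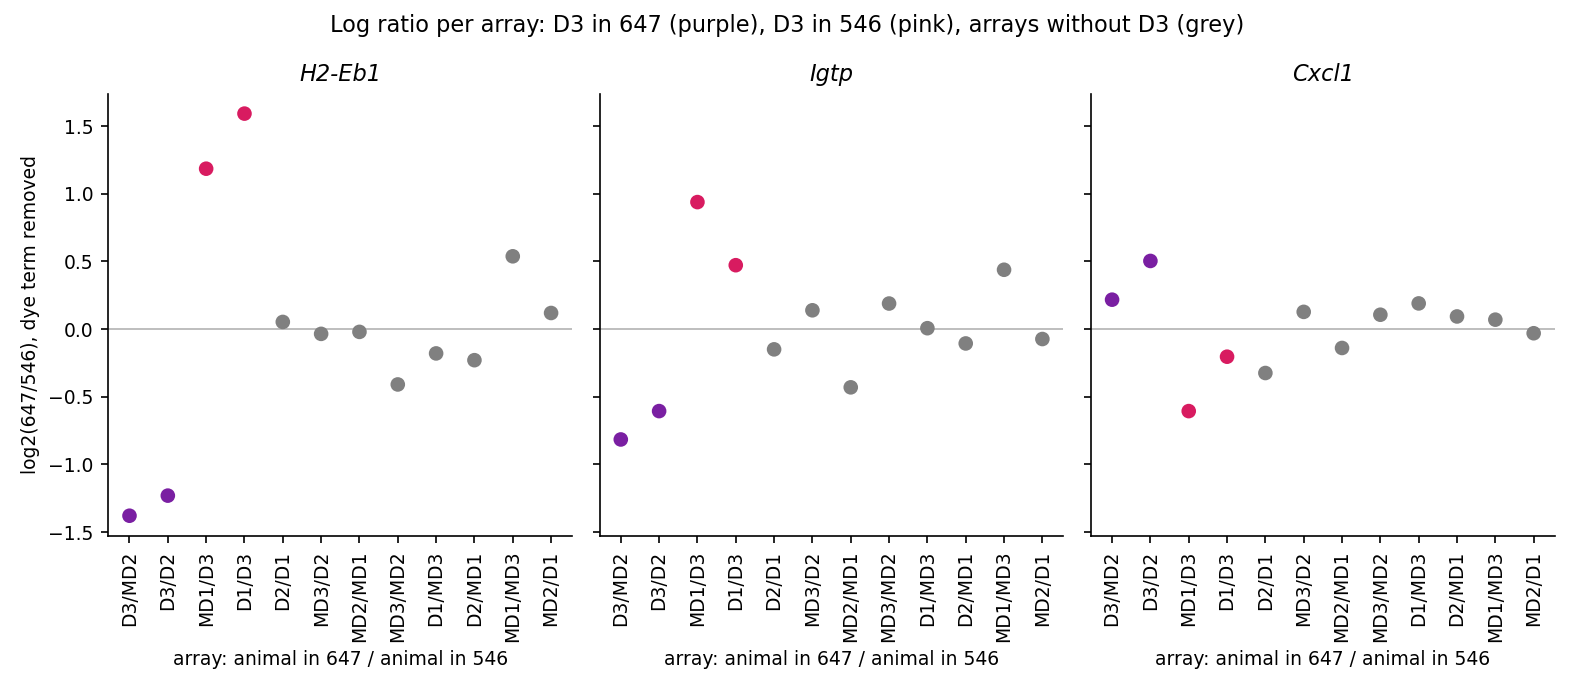
Log2 ratio of Alexa Fluor 647 over 546 for H2-Eb1, Igtp and Cxcl1 on each of the 12 arrays after removal of the dye term, with diabetic 3 in 647 (purple), in 546 (pink) or absent (grey). For H2-Eb1 the 4 arrays with diabetic 3 lie beyond 1.18 in either direction and the other 8 within 0.54; the sign turns with the dye that carries diabetic 3, and for Cxcl1 it is opposite to that of H2-Eb1.

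Igtp was also low in diabetic 3. Its level was 0.07 in diabetic 1, 0.04 in diabetic 2 and -0.58 in diabetic 3, and 0.37, 0.02 and 0.09 in menopausal/diabetic 1, 2 and 3. Diabetic 3 lay 0.60 ± 0.11 (SE between arrays) below the next animal, and menopausal/diabetic 1 lay 0.28 ± 0.11 above the next. In diabetic 3 it was 1.56-fold lower than the mean of diabetic 1 and 2 (-0.64 on the log2 scale, F test adjusted p 0.033). That difference was -0.23 without background correction, -0.33 with median centring and -0.30 with separate channels.

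On the arrays, Igtp was lower in diabetic 3 than in its partner on 4 of 4, with log2 ratios of -0.94 to -0.47 after removal of the dye term, and the other 8 arrays lay within 0.44 of 0. The group difference was 0.32 ± 0.19 (SE, n = 3 animals per group, limma adjusted p 0.675), and 0.05 without diabetic 3. Among the menopausal/diabetic animals the unadjusted F test p of Igtp was 0.0289, the only member under 0.05 there, and the adjusted p was 0.924. The call among diabetic animals was lost under 14 of 20 alternatives, including median centring (adjusted p 0.15), separate channels (0.97), the re-matched deposited ratios (0.153) and each animal left out in turn (0.0786 to 0.916).

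Genes listed here as interferon-induced, other than Igtp, lay on the same side in diabetic 3. Of a list of 53 such genes, 8 had a named clone and 7 were tested, and all 7 were lower in diabetic 3 than in the mean of diabetic 1 and 2, where 48.1% of all features were. Their median difference was -0.52, or -0.47 over the 6 without Igtp, against 0.0051 over all features. Igtp was the only gene of the list that passed the F test. Tgtp1 had -0.77 (adjusted p 0.0519), Bst2 had -0.64 (0.0886), Ifitm3 had -0.52 (0.0545) and Ifitm2 had -0.43 (0.297). Samhd1 and Sp100 both had -0.11 (0.741 and 0.526), where the 5th percentile over all features was -0.31. Sp100 was detected on 2 of 12 arrays.

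Tgtp1 illustrated the pattern by animal: its level was 0.20, 0.05 and -0.65 in diabetic 1, 2 and 3 and 0.29, 0.13 and -0.01 in menopausal/diabetic 1, 2 and 3. Ifitm3 had 0.17, 0.01 and -0.43 in the diabetic and 0.24, -0.16 and 0.17 in the menopausal/diabetic animals. Diabetic 3 was the lowest animal for both, and the groups overlapped. Group differences over the list had a median of 0.17 with 5 of 7 higher in menopausal/diabetic animals, and of 0.02 with 4 of 7 higher without diabetic 3, and 0 genes passed the group test. The median for diabetic 3 was -0.16 without background correction, -0.18 with median centring and 0.27 with the deposited columns as named and turned.

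The receptors and signalling proteins of the interferon pathways did not share this side. Of 22 listed, 10 were tested, 4 were lower in diabetic 3 and 0 passed either test, with a median difference of 0.05. Jak1, a kinase of interferon receptors, had -0.16, Stat2, a transcription factor of type I interferon signalling, had -0.03, Irf1, an interferon gamma-induced transcription factor, had 0.33 and Ptpn2, a phosphatase that acts on JAK kinases, had 0.43. Stat2 was detected on 3 of 12 arrays and the other 3 genes on 8 to 12.

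Antigen presentation genes other than H2-Eb1 were mostly lower in diabetic 3, with no call. For class II, 4 of 17 listed genes were tested. H2-Eb1 was called among diabetic animals, and the remaining 3 had lower values in diabetic 3: Lgmn, a lysosomal protease that cuts antigens, had -0.46, H2-DMa, which loads peptides and was detected on 2 of 12 arrays, had -0.17, and Ifi30, a lysosomal thiol reductase, had -0.01. Lgmn was also higher in menopausal/diabetic animals by 0.39 ± 0.16 (SE, n = 3 per group, limma p 0.0428, adjusted p 0.584), and its clone lay in the upper left 3 print blocks, where 31.3% of features had such a p against 7.03% elsewhere. No member lay in those blocks. The median of the 4 in diabetic 3 was -0.32, and -0.10 with 2 of 4 lower under median centring. No named clone was found for Cd74, H2-Aa or H2-Ab1.

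For class I, 6 of 21 listed genes were tested, 5 were lower in diabetic 3 and 0 were called among diabetic animals or between groups. B2m, the light chain of class I molecules, had 0.18, -0.16 and -0.59 in diabetic 1, 2 and 3 and 0.11, 0.13 and 0.33 in menopausal/diabetic 1, 2 and 3. Its difference in diabetic 3 was -0.60 (F test adjusted p 0.128). Tapbp and Pdia3, which help load class I peptides, had -0.44 and -0.43, and Calr, a chaperone of the same complex, had -0.21. The list's median for diabetic 3 was -0.32, but 0.09 with median centring and 0.15 with the deposited columns as named and turned.

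Markers of the kidney's own cells were low in diabetic 3 together with these genes. Of 18 listed markers of tubule and podocyte, 5 had a clone, and all 5 were lower in diabetic 3, where 48.1% of all features were. The list's median was -1.36, and -0.79 with median centring. With the deposited columns as named and turned it was 0.61, with 0 of 5 lower. The F test called 4 of them: Gatm, a creatine synthesis enzyme of proximal tubule, at -1.98, Calb1, a calcium-binding protein of distal tubule, at -1.38, Lrp2, the endocytic receptor megalin, at -1.36, and Miox, which breaks down inositol in proximal tubule, at -1.11. Podxl of podocytes had -0.36 and was not called. Of all features, 1.45% were called. The list's median level ran from -1.15 to 0.24 over the diabetic and from 0.11 to 0.31 over the menopausal/diabetic animals, and the 5 clones were detected on 10 to 12 arrays. Whether the make-up of the cortex piece in diabetic 3 had a part in the values of H2-Eb1 and Igtp was not tested, and in such bulk RNA fewer cells of a type and less RNA per cell cannot be told apart.

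Common leukocyte markers were mostly dim, and the size and sign of leukocyte marker differences depended on the background correction. Of 20 macrophage markers 5 were tested, among them Lyz2, and 4 were lower in diabetic 3, with a median of -0.11. Of 15 markers common to leukocytes 4 were tested, and all 4 were lower, with a median of -0.09. The median level of the macrophage markers ran from -0.05 to 0.03 over the diabetic and from -0.04 to 0.0036 over the menopausal/diabetic animals. The median level of the common leukocyte markers ran from -0.08 to 0.06 and from -0.04 to 0.05. With plain background subtraction the medians in diabetic 3 were -0.59 for macrophage and -0.67 for common leukocyte markers, against -0.66 for the interferon-induced genes. With the re-matched deposited ratios they were -0.60 for macrophage and -0.49 for common leukocyte markers. Without background correction the macrophage median was 0.0057, with 2 of 5 lower in diabetic 3. The common leukocyte median was then -0.0098, with 2 of 4 lower, against -0.16 for the interferon-induced genes. Of the macrophage markers, 4 of 5 were detected on at least 6 arrays, and of the common leukocyte markers 1 of 4. None of these 9 passed the F test. No named clone was found for Ptprc, Adgre1, Cd68 or Csf1r, or for any of the 15 listed markers of T and NK cells, and for B cells 1 marker, Blnk, was tested and had -0.15 in diabetic 3. The median difference in diabetic 3 was 0.11 over 3 neutrophil markers, -0.15 over 2 endothelial, -0.0067 over 2 platelet and 0.24 over 3 red blood cell markers, with 0 called.

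**Figure D3:**
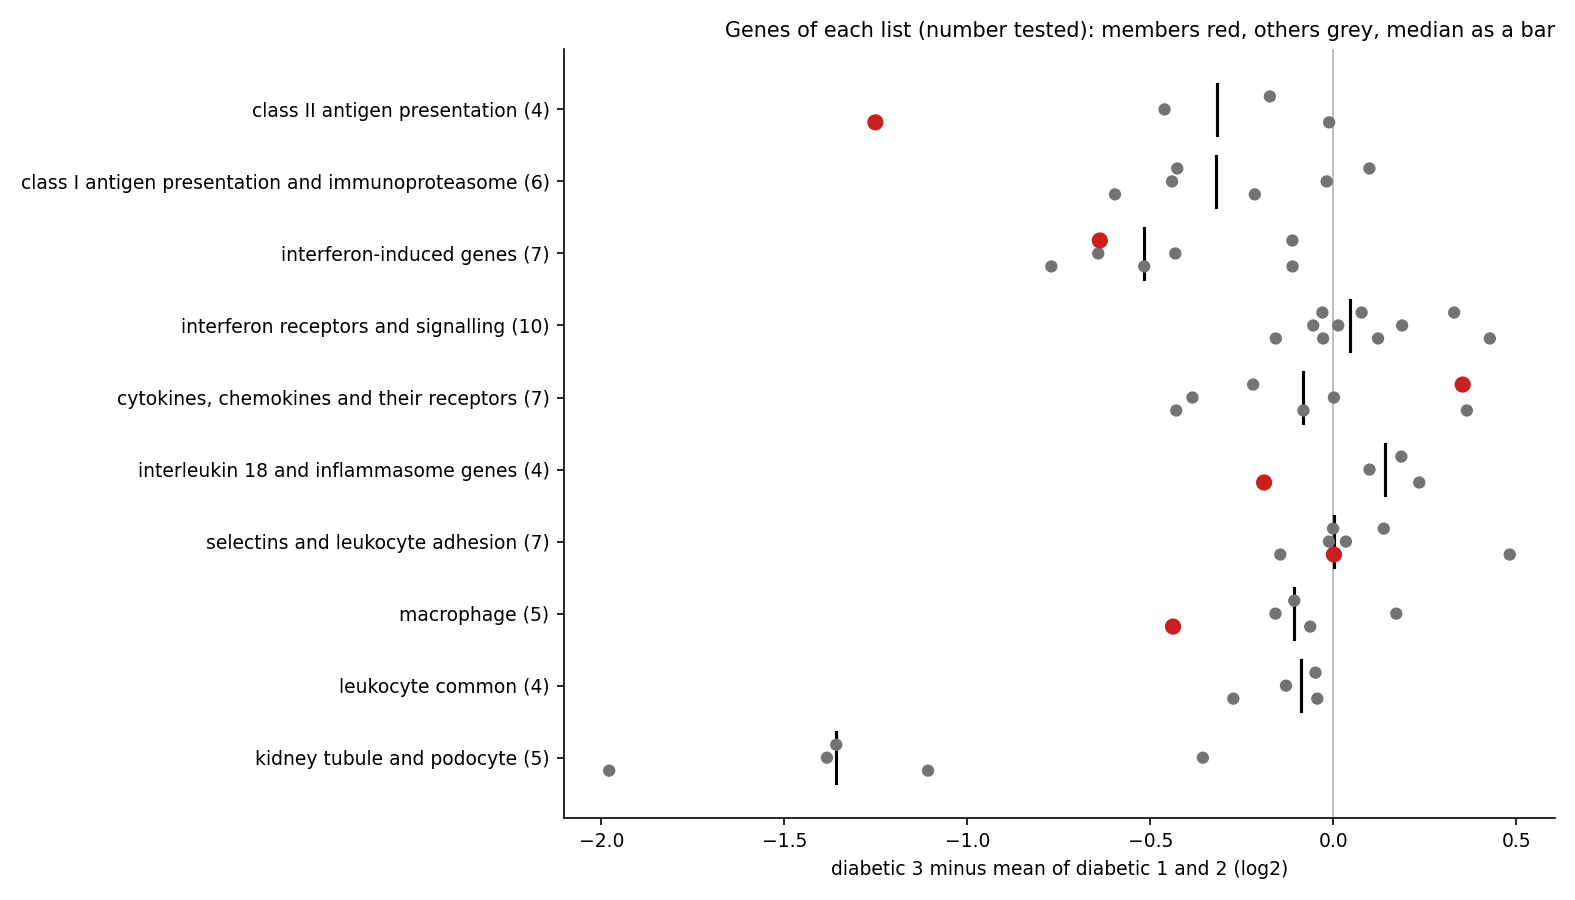
Difference of diabetic 3 from the mean of diabetic 1 and 2 on a log2 scale for each tested gene of the lists (number tested in brackets), with members in red, other genes in grey and the list's median as a bar. The 7 interferon-induced genes and the 5 tubule and podocyte markers all lie below 0, with medians of -0.52 and -1.36, and interferon receptors and signalling genes lie around 0.05.

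Lyz2 stood apart from H2-Eb1 and Igtp in which animal was extreme. Its level was 0.51 in diabetic 1, -0.03 in diabetic 2 and -0.20 in diabetic 3, and -0.24, 0.00 and -0.04 in menopausal/diabetic 1, 2 and 3. Diabetic 1 lay 0.50 ± 0.14 (SE between arrays) above the next animal, and the rest fell within the span of the menopausal/diabetic group. Against the mean of diabetic 1 and 2, which holds the high diabetic 1, Lyz2 had -0.44 in diabetic 3. Of all features, 2.23% were as low or lower. On 4 of 4 arrays it was lower in diabetic 3 than in its partner, with log2 ratios of -0.41 to -0.04 after removal of the dye term. The group difference was -0.18 ± 0.18 (SE, n = 3 animals per group, limma adjusted p 0.837), and 0.07 without diabetic 1.

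Among the diabetic animals Lyz2 had an F test p of 0.00157 that did not pass adjustment (adjusted p 0.0736), and 0.00592 with a loess curve per print block. It was detected on 12 of 12 arrays. Its correlation with H2-Eb1 over the 12 arrays was 0.251 and with Igtp 0.227, while that of H2-Eb1 with Igtp was 0.859. These correlations share animals, arrays and the loess curve of each array, and are descriptions. Of the other macrophage markers, C1qa and C1qb, subunits of complement C1q, had 0.11 and 0.01 in diabetic 1, and Fcgr1, a receptor for immunoglobulin G, had -0.26.

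Cxcl1 had its highest level in diabetic 3. It was 0.09 in diabetic 1, -0.16 in diabetic 2 and 0.32 in diabetic 3, and -0.12, -0.07 and -0.07 in menopausal/diabetic 1, 2 and 3. The 3 menopausal/diabetic animals lay within 0.05 of each other, and the diabetic animals lay on either side of them. Diabetic 3 lay 0.23 ± 0.11 (SE between arrays) above diabetic 1, the next animal.

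On all 4 arrays with diabetic 3, Cxcl1 was higher in that animal than in its partner, by 0.20 to 0.61 on the log2 scale after removal of the dye term. The F test among diabetic animals did not pass (p 0.0047, adjusted p 0.134), and the group difference was -0.17 ± 0.12 (SE, n = 3 animals per group, limma adjusted p 0.726). Its spots were dim. They were called detected on 7 of 12 arrays, and on 3 of the 4 with diabetic 3. On the array with menopausal/diabetic 1, which gave the 0.61, neither spot was called detected. The signal of menopausal/diabetic 1 there was 2.64 scanner units over background. Without background correction the difference in diabetic 3 was 0.13 and with plain subtraction 1.25, against 0.35 as reported.

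Of 52 listed cytokine and chemokine genes, 6 besides Cxcl1 were tested, and 0 passed either test. In diabetic 3, 4 of the 6 were lower, where 48.1% of all features were. All 6 had a group difference above 0, where 49% of features did, without a call. With Cxcl1 included, 6 of 7 were above 0, with a median of 0.08. Without diabetic 3 it was 4 of 7, with a median of 1e-04, and without background correction 4 of 7. Cxcr4, the receptor of Cxcl12, had -0.38 in diabetic 3 and a group difference of 0.32 ± 0.17. Il16, a T cell attractant, had a group difference of 0.37 ± 0.14 (limma p 0.0351, adjusted p 0.575), but its clone was detected on 1 of 12 arrays. Ccl27a, a chemokine of skin, had a group difference of 0.08 and was detected on 0 arrays.

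Il18 was dim, and its differences were small as reported. Its level was 0.06, 0.00 and -0.16 in diabetic 1, 2 and 3 and -0.02, 0.09 and 0.03 in menopausal/diabetic 1, 2 and 3. Diabetic 3 was the lowest animal, 0.14 ± 0.07 (SE between arrays) below the next. The difference of diabetic 3 from the mean of diabetic 1 and 2 was -0.19, but -0.61 with plain background subtraction and -0.75 with the re-matched deposited ratios. The group difference was 0.07 ± 0.07 (SE, n = 3 animals per group, limma adjusted p 0.862) and -0.04 without diabetic 3, and the F test among diabetic animals gave an adjusted p of 0.318.

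The clone of Il18 was called detected on 6 of 12 arrays and on 1 of the 4 with diabetic 3. On the array of diabetic 3 and menopausal/diabetic 1 its signal lay below the local background in both dyes. The array of diabetic 3 and menopausal/diabetic 2 gave the ratio furthest from 0 for diabetic 3 over its partner (-0.35 after removal of the dye term). On that array the 2 spots differed by 1.04 on the log2 scale, and neither was called detected. Of 17 listed genes of interleukin 18 and the inflammasome, 4 were tested and 0 passed either test. Pycard, the adaptor ASC, had 0.10 in diabetic 3, Myd88, the adaptor of interleukin 1 and 18 receptors, had 0.24 and Irak1, a kinase downstream of it, had 0.19. No named clone was found for Casp1.

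Selp was near background. Its level was 0.10, -0.04 and 0.03 in diabetic 1, 2 and 3 and -0.14, 0.00 and 0.05 in menopausal/diabetic 1, 2 and 3, with no animal beyond 2.44 times the standard error from any other. The group difference was -0.06 ± 0.07 (SE, n = 3 animals per group, limma adjusted p 0.862), and the F test among diabetic animals gave an adjusted p of 0.807. It was called detected on 2 of 12 arrays, on 0 of those with diabetic 2 or menopausal/diabetic 1, and a difference was not detectable at this signal.

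Among selectins and leukocyte adhesion genes, 7 of 21 listed were tested, 3 were lower in diabetic 3 and 0 passed either test. Selplg, the ligand of P-selectin, had -0.0003 in diabetic 3 and was detected on 0 arrays. F11r, a tight junction adhesion molecule, had -0.08, -0.07 and 0.40 in diabetic 1, 2 and 3 and was detected on 12 arrays (F test adjusted p 0.137). Cd34, a sialomucin of endothelium, had a group difference of -0.08 ± 0.05. No named clone was found for Icam1, Vcam1 or Pecam1.

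**Figure D4:**
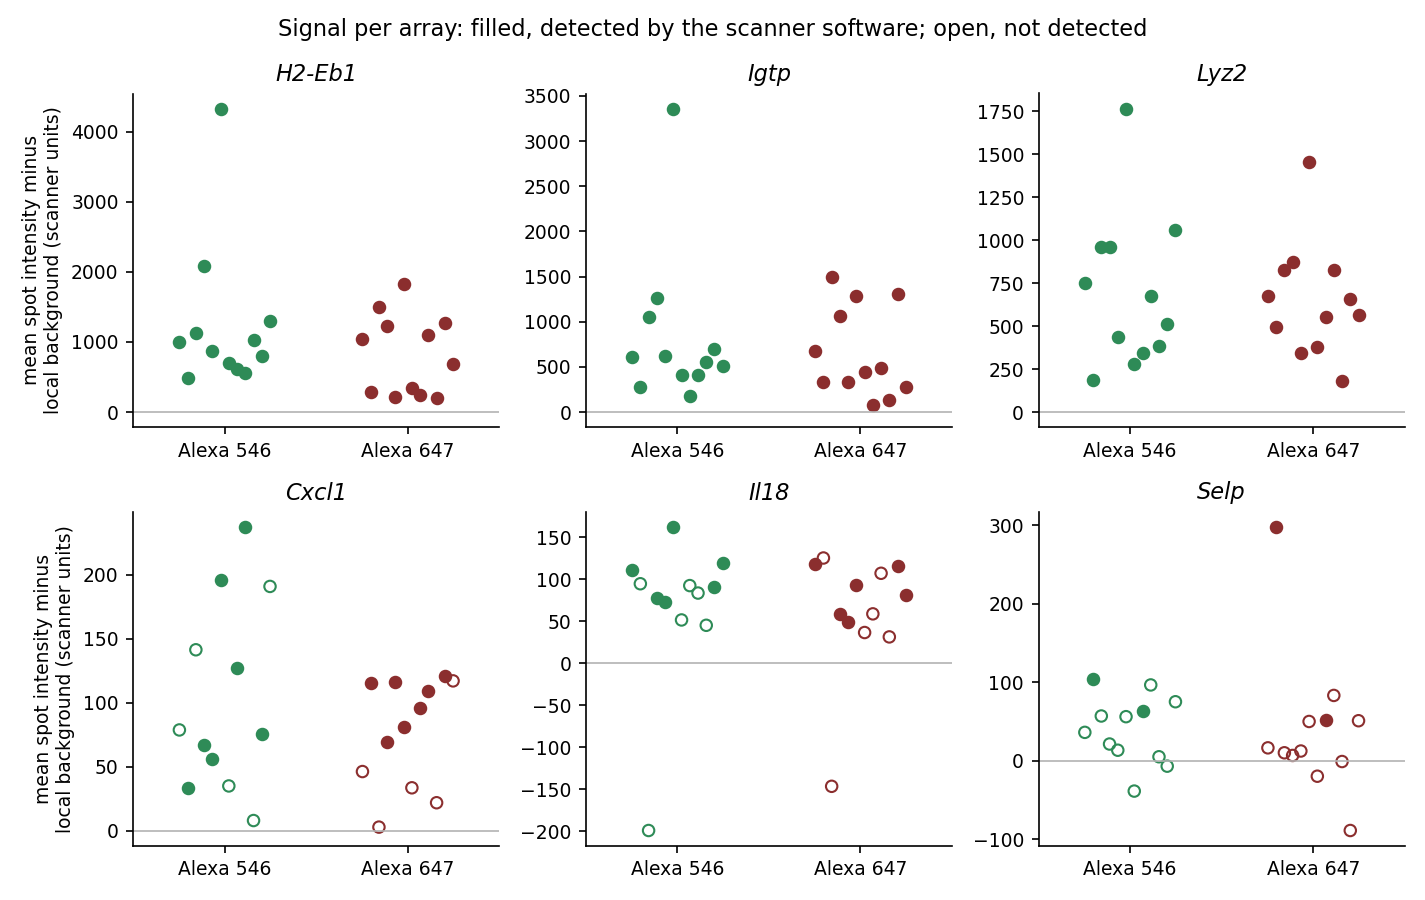
Mean spot intensity minus local background, in scanner units, of the 6 members in the 2 dyes on each of the 12 arrays, filled where the scanner software called a spot of the clone detected. H2-Eb1, Igtp and Lyz2 are detected on 12 arrays each, Cxcl1 on 7, Il18 on 6 and Selp on 2, and the axes differ between genes.

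The members fell into bright and dim clones. H2-Eb1 had signals over background of 479 to 4333 scanner units in Alexa Fluor 546 (median 936) and 198 to 1830 in 647 (median 863). Igtp ran from 178 to 3358 in 546 and from 77.6 to 1496 in 647, and Lyz2 from 184 to 1766 and from 179 to 1454. Cxcl1 ran from 7.79 to 237 and from 2.64 to 120.4, while Il18 and Selp fell below 0 on some arrays. By signal above 2 background SD in Alexa Fluor 546 in place of the software's call, Cxcl1 was detected on 11 arrays, Il18 on 10 and Selp on 7, and in 647 on 8, 6 and 2.

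The genes whose 12 log ratios were most like those of a member were sought among 3927 other named genes detected on at least 6 arrays (3928 for Selp). They were picked on the same 12 ratios that gave the calls and the values in diabetic 3. Those calls and values therefore follow in part from the choice and are descriptions. Of all features tested, 1.45% were called among diabetic animals. For H2-Eb1 they were Mcm6 (Pearson r 0.962), Tmem242 (0.939) and Rhoa (0.936), the last printed in the same block, and all 3 were called among diabetic animals with values in diabetic 3 of -0.69, -0.84 and -0.95. For Igtp they were Ptch1 (0.948), Atp2a2 (0.941) and Msn (0.92), of which Msn was called. For Cxcl1 they were Slc16a1 (0.939), Rflnb (0.923, in the same block) and Plpp5 (0.916), and Slc16a1 and Rflnb were called with values of 0.80 and 0.55. For Lyz2 the first was Uggt1 (0.875), for Il18 Otud6b (0.902) and for Selp Oip5os1 (0.912), of which none was called.

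**Figure D5:**
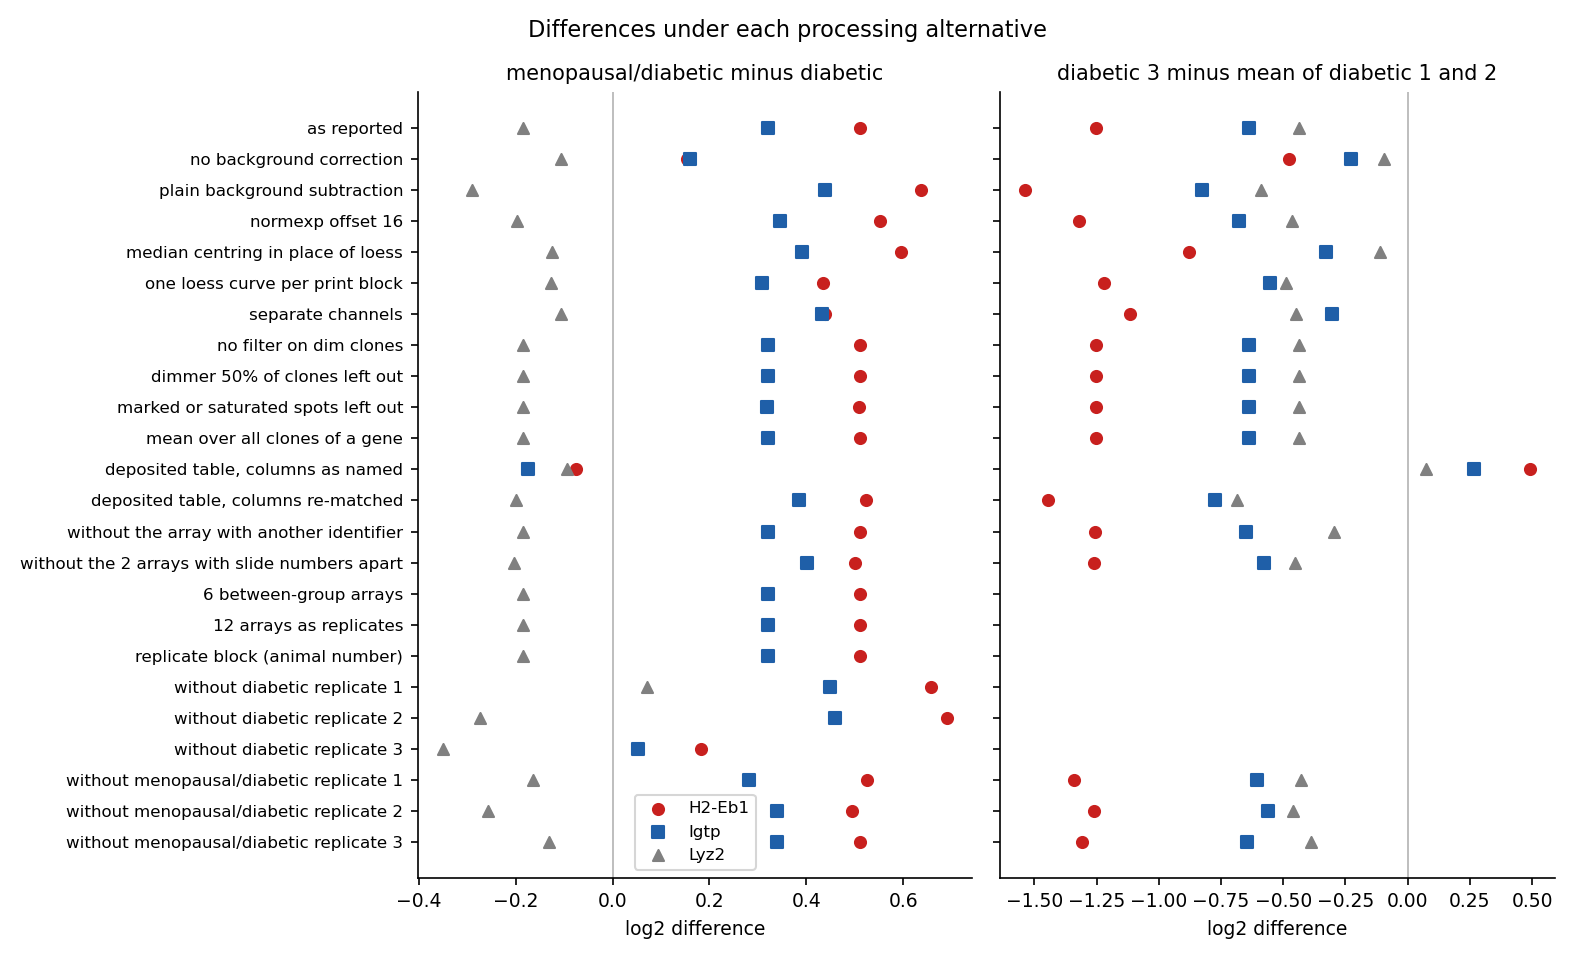
Log2 differences of H2-Eb1, Igtp and Lyz2 under each processing alternative, as the group difference (left) and as diabetic 3 minus the mean of diabetic 1 and 2 (right, for alternatives that keep the 3 diabetic animals). H2-Eb1 in diabetic 3 runs from -1.54 to -0.48 except for 0.49 with the deposited columns as named, whose sign was turned (-0.49 without the turn), and its group difference falls to 0.18 without diabetic 3.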

How the data were processed

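Kidney cortex RNA was amplified, converted to cDNA and coupled to Alexa Fluor 546 or 647, per the labels' protocols. The authors deposited 1 scanner file per array holding, per the file headers, each spot's mean intensity and the median intensity around it, a detection status and a signal-to-noise score. The authors also deposited log2 ratios for every array, with normalization, scale, centring and direction unstated. The signal-to-noise score is the scanner software's own value, as deposited, and entered no test. No source used here names the scanner software. Of the 31200 spots, 18382 had 1 gene symbol, and symbols were updated through RefSeq gene numbers. Probe numbers were counted from the bottom of the slide, since the 164 clones of ribosomal protein genes then had a mean brightness percentile of 86.2, against 49.3 in file order.

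Normexp background correction (offset 50, which shrinks differences of dim spots) and loess within arrays were run with limma 3.58.1 (R 4.3.3). Both spots of each clone were averaged, the dimmest 25% of clones were left out and the brightest clone stood for a gene, giving 5871 genes and 4087 unnamed clones. Levels per animal came from the 12 arrays with a dye term. Groups were compared by lmFit and eBayes on 6 levels (two-sided), and animals within a group by a moderated F test on 12 arrays. Both had Benjamini-Hochberg adjustment over all 9958 features and a threshold of 0.05. The F test measures an RNA sample against array error, so an animal and its RNA sample cannot be told apart, and the number of arrays limits the precision.

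The members and gene lists were chosen with earlier results of these data known. Genes were named by rule as the members, up to 4 genes per list with the smallest p of the group difference, genes past the threshold, 15 further genes where a clone existed and the 3 genes most like each member. Ifitm2, Samhd1, Sp100, Miox and the genes whose promoters are shown were chosen after their values were seen. Alternatives changed the background correction, normalization, filter, clones, input and arrays.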

Additional observations from a re-analysis of the deposited data

How the results depend on the processing

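The group differences of the 6 members kept their side of the threshold under all 23 alternatives (22 for Selp, which was not tested with the dimmer 50% of clones left out). Their sign turned with the deposited columns as named for H2-Eb1 (-0.0763) and Igtp (-0.1748), values that become 0.0763 and 0.1748 if the unstated direction of that table is not turned (then Lyz2 at 0.0946, Cxcl1 at 0.1915, Il18 at -0.0551 and Selp at 0.3027 have the other sign), with plain background subtraction (-0.129) and the re-matched deposited ratios (-0.0034) for Il18, without diabetic 3 for Il18 (-0.0351) and without diabetic 1 for Lyz2 (0.0716). With 1 animal left out they ran from 0.1815 to 0.6903 for H2-Eb1, 0.0523 to 0.458 for Igtp, -0.3497 to 0.0716 for Lyz2 and -0.0351 to 0.1337 for Il18. That of Cxcl1 ran from -1.46 with plain subtraction to -0.02 without background correction. The count of features past the threshold was 22 with arrays as replicates and 0 to 46 with 1 animal left out (46 without diabetic 2).

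Among diabetic animals the count of 144 became 46 without background correction, 4 with plain subtraction, 334 with median centring, 269 with a loess curve per print block, 25 with separate channels, 0 with the deposited columns as named, 77 re-matched, 31 without the array with another identifier, 56 without the 2 arrays with slide numbers apart, and 0 to 111 with 1 animal left out (1 without diabetic 2, 0 without diabetic 3, 28, 2 and 36 without menopausal/diabetic 1, 2 and 3). The adjusted p of Igtp in the same order was 0.411, 0.372, 0.15, below the threshold with a loess curve per print block, then 0.97, 1, 0.153, 0.222 and 0.117, and 0.0786 to 0.916 with 1 animal left out. That of H2-Eb1 passed under 13 of 20, and was 0.0989 with plain subtraction, 1 with the columns as named, 0.0547 without the array with another identifier and 0.0228 to 0.931 with 1 animal left out. Lyz2 passed with a loess curve per print block (0.00592). Among menopausal/diabetic animals 1 feature passed with that curve. The cause was not tested. Leaving out an animal in the F tests and leaving out the 2 arrays with slide numbers apart were chosen after seeing the data.

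Animal numbers are shared between the groups, and the levels of same-numbered animals had correlations of -0.044, -0.366 and -0.172 across features. Levels of a gene sum to 0 over the 6 animals, so these correlations cannot show whether the numbers mark a pairing. With the number as a replicate block, 0 features passed, and 676 had an unadjusted p under 0.05.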
